A study of Mus musculus with 6 samples.

Results

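A set of 10 genes that mark Wnt signalling around the central veins of the liver lobule, 10 of the 19594 genes with read counts in the deposited table, were followed in liver of mice labelled as knockout for the orphan nuclear receptor SHP. The members were given by symbol: Oat, Rgn, Slc1a2, Lhpp, Axin2, Lgr5, Tbx3, Rnf43, Znrf3 and Sp5, and each matched 1 row of the table. The study sequenced liver RNA of male mice aged 2 months on a C57BL6 background, 3 wild type and 3 labelled SHP -/- knockout, with no other treatment, allele or group named. Capped RNA was pulled out with an engineered EIF4E, the protein that holds the 5′ cap, so levels are those of cap-selected and not of total RNA. The labels do not say how the knockout allele was made or in which cells it acts, and they do not say whether animals shared litters.

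SHP, the product of Nr0b2, lacks the part with which nuclear receptors hold DNA, and acts by repressing the factors it pairs with. In the liver lobule, endothelial cells of the central vein release Wnt ligands and R-spondins, and nearby hepatocytes respond by stabilising β-catenin, which acts on genes through TCF and LEF factors. Pericentral hepatocytes make glutamine, bile acids and many drug-metabolising enzymes, while periportal hepatocytes carry ureagenesis and gluconeogenesis. Some Wnt targets encode feedback regulators of the pathway itself, and their transcripts are widely used as readouts of its activity.

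Sequence of the 250 bases before the annotated start was at hand for Axin2, Oat, Rnf43, Slc1a2 and Sp5 (5 of 10 members, RefSeq, GRCm38.p6). The windows were searched on both strands for CTTTGAT, a core of the TCF/LEF element, and for AAGGTCA, the half-site bound by LRH-1, a nuclear receptor that SHP represses. The Sp5 and Slc1a2 windows are shown because they hold a TCF/LEF match, in capitals (on the reverse strand in Slc1a2, where it reads ATCAAAG), and the Oat window because Oat is the member with a window whose transcripts differed between the genotypes.
Sp5, chr2:70474673-70474922, forward strand: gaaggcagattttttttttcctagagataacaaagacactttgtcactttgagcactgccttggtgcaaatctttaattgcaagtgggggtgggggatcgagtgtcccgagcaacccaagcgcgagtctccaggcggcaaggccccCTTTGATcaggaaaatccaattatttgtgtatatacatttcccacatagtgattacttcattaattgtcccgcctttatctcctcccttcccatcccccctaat
Slc1a2, chr2:102706188-102706437, forward strand: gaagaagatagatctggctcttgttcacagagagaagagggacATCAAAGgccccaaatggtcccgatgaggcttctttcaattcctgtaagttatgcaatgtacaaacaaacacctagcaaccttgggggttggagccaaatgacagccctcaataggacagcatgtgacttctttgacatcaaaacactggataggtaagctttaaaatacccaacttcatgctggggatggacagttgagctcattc
Oat, chr7:132576399-132576648, reverse strand: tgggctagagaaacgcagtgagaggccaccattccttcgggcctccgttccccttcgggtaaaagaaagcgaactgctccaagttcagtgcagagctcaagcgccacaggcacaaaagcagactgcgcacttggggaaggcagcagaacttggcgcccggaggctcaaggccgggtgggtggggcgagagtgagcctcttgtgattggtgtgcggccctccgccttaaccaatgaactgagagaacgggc

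The TCF/LEF match began 104 bases before the RefSeq start used for Sp5 and 207 bases before the RefSeq start used for Slc1a2. These starts are in GRCm38 and the counted genes in mm9, and they were not matched. The Slc1a2 window may therefore lie at a start inside the counted gene and not at its 5′ end. The Oat, Axin2 and both Rnf43 windows held neither motif, and no member's window held the LRH-1 half-site. Of all 32851 windows of this length, 3.21% held the TCF/LEF letters and 4.08% the LRH-1 letters. A match describes letters in a window and does not show a bound site.

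Library totals ran from 4494353 to 7225842 counts. Uncapped transcripts of the mitochondrial genome made up 10.2% to 10.3% of wild-type counts and 5.66% to 7.10% of knockout counts. Values below are CPM, counts scaled to a common library total, on library sizes scaled by trimmed means of M values. Differences are log2 knockout minus wild type from limma voom over 11794 genes, and a gene was called at a Benjamini-Hochberg adjusted p under 0.05 over all of them. Transcripts of Nr0b2 itself were lower but present in knockout liver, at 8.01 ± 2.03 CPM against 14.5 ± 2.87 in wild type (SD, n = 3 each; log2 difference −0.81 ± 0.25, SE; limma voom adjusted p = 0.0442), a call lost with no low-count filter, with the replicate block, and without any single library other than knockout library 3. All 11 hepatocyte markers with counts were detected, and their summed level was 51568 to 58231 CPM in the wild-type libraries and 54622 to 62303 in knockout. Of these markers 4 were called higher and 1 lower (45.5%, beside 14.5% of all genes tested). Cebpa, a hepatocyte transcription factor, rose by 1.02 ± 0.11 on the log2 scale and kept its call in all 6 fits without 1 library, whereas the single lower call, Tat, an enzyme of tyrosine breakdown (log2 difference −0.35 ± 0.10), lost its call in all 6, and 1 to 3 higher calls were left. In whole liver, fewer cells of a type and less RNA per cell cannot be told apart.

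The members did not move as a block. Lhpp and Oat rose in knockout liver, Rgn fell, and the Wnt feedback genes Axin2, Rnf43 and Znrf3, the R-spondin receptor Lgr5, the transcription factor Tbx3 and the transporter Slc1a2 did not pass the threshold. Sp5 was too weakly counted to be tested. Of the 9 members tested, 2 were higher, 1 was lower and 6 did not pass, against 14.5% of all genes tested called in either direction, 7.58% higher and 6.94% lower. Over all genes 52.2% of calls were higher, and 40.0% with library totals that leave out mitochondrial genes. That setting, here and below, also applied no trimmed-mean factor. The median log2 difference of the 9 was −0.21, beside −0.01 for all genes tested. Of the 9 differences 6 were negative, beside 50.5% of those of all genes tested, and so few genes cannot show a lean.

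**Figure D1:**
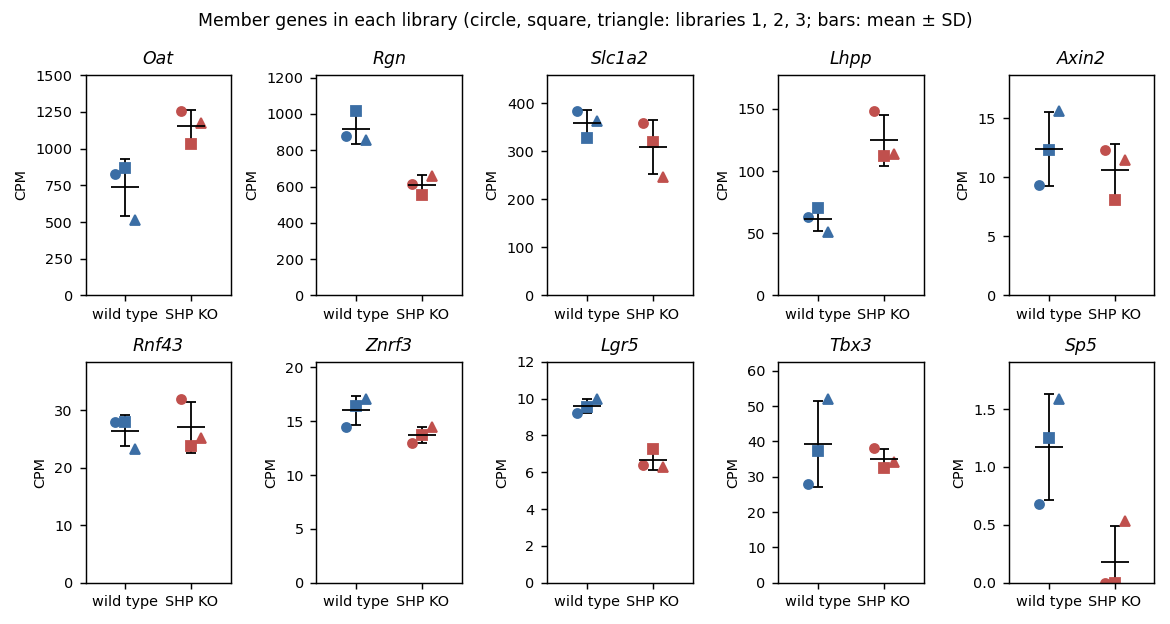
Level of each member in every library, in CPM on a linear axis from 0, with wild-type libraries in blue, knockout libraries in red, and the mean ± SD (n = 3) as black bars. Lhpp and Oat lay higher and Rgn lower in all 3 knockout libraries, whereas Axin2, Rnf43, Tbx3 and Slc1a2 overlapped between the genotypes.

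Among the pericentral enzymes, Lhpp had the smallest p of the members. It encodes a phosphatase that removes phosphate from histidine and lysine residues and from pyrophosphate (ENSMUSG00000030946; mm9 chr7:139802321-139898103). Its level was 62.9, 70.1 and 50.7 CPM in wild-type libraries 1 to 3 and 148, 112 and 114 CPM in the knockout libraries. Every knockout library stood above every wild-type library, with a gap wider than the spread inside either group. The mean rose from 61.2 ± 9.81 to 125 ± 19.8 CPM (2.04-fold, 95% interval 1.65 to 2.53; log2 difference 1.03 ± 0.14; limma voom adjusted p = 7.13e-04). The call held in all 6 fits that left out 1 library, with log2 differences from 0.89 to 1.13.

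Oat encodes ornithine aminotransferase, the mitochondrial enzyme that links ornithine with glutamate and proline and is confined to pericentral hepatocytes in normal liver (ENSMUSG00000030934; mm9 chr7:139749162-139768029). Its level was 829, 869 and 512 CPM in the wild-type libraries and 1254, 1029.9 and 1174 CPM in knockout. The groups did not overlap, but wild-type library 3 stood well below the other wild-type libraries. Oat rose from 736 ± 196 to 1153 ± 114 CPM (1.6-fold; log2 difference 0.68 ± 0.16, 95% interval 0.33 to 1.04; limma voom adjusted p = 0.0150). Without wild-type library 3 the log2 difference was 0.44 and the call was lost (adjusted p = 0.0561), while the other 5 such fits kept it.

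Rgn went the other way. It encodes regucalcin, also called SMP30, a gluconolactonase of the pathway to ascorbate (ENSMUSG00000023070; mm9 chrX:20126913-20139215). Wild-type libraries stood at 878, 1014 and 858 CPM and knockout libraries at 616, 555 and 659 CPM. The lowest wild-type library was above the highest knockout library, and each group was tight. Rgn fell from 917 ± 85.2 to 610.1 ± 52.0 CPM (log2 difference −0.59 ± 0.11; limma voom adjusted p = 0.00326), and all 6 fits without 1 library kept the call. Gulo, the gulonolactone oxidase that acts one step after Rgn in the same pathway and was on the list of other pericentral genes, rose from 288 ± 47.8 to 501 ± 41.8 CPM (0.81 ± 0.13; adjusted p = 0.00127); it was singled out after its values were seen.

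Slc1a2, the glutamate transporter GLT-1 that pericentral hepatocytes use to take up glutamate (ENSMUSG00000005089; mm9 chr2:102498816-102630941), stood at 383, 328 and 363 CPM in the wild-type and 359, 320 and 247 CPM in the knockout libraries. Knockout library 3 was the lowest and the remaining knockout libraries lay within or close to the wild-type range. The log2 difference of −0.23 ± 0.13 did not pass (limma voom adjusted p = 0.248), and its 95% interval ran from −0.51 to 0.05. It was −0.08 without knockout library 3.

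Because Oat, Lhpp and Rgn are read in the same libraries, their count ratios do not depend on how libraries are scaled. There were 0.944, 0.857 and 0.597 Oat counts per Rgn count in wild type and 2.04, 1.85 and 1.78 in knockout. Oat was the less counted of the pair in every wild-type library and the more counted in every knockout library. Lhpp counts per Rgn count went from 0.0717, 0.0691 and 0.0591 to 0.240, 0.202 and 0.174. For both ratios the groups did not overlap, and a two-sided exact permutation test gave p = 0.10, which 3 against 3 libraries cannot go below (0.167 adjusted over the 5 ratios computed, which were chosen after the values were seen). Oat counts per Lhpp count overlapped between genotypes, at 11.9 ± 1.6 in wild type and 9.32 ± 0.890 in knockout (SD, n = 3 each; exact permutation p = 0.200, 0.250 adjusted).

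**Figure D2:**
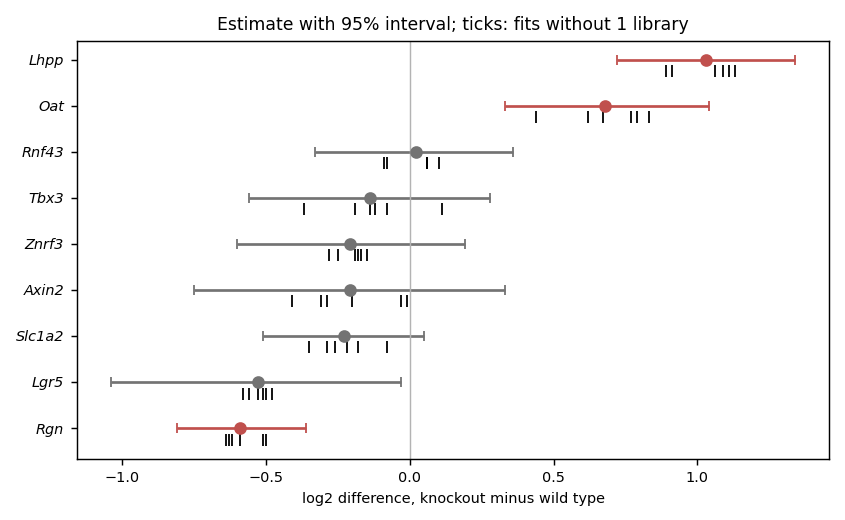
Log2 difference between knockout and wild type for the 9 members tested, with its 95% interval from limma voom; red marks an adjusted p under 0.05, grey marks members that did not pass, and the ticks under each point are the 6 fits without 1 library. Lhpp and Oat lie to the right of 0 and Rgn to the left, while the intervals of Axin2, Znrf3, Rnf43, Tbx3 and Slc1a2 include 0. The interval of Lgr5, which is not adjusted over genes, lies just below 0, but its adjusted p did not pass.

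Axin2 is the scaffold of the complex that destroys β-catenin and a feedback target of the pathway (ENSMUSG00000000142; mm9 chr11:108781663-108812097). Its counts were low, 55, 59 and 98 in wild type and 54, 41 and 86 in knockout, which gave 9.38, 12.3 and 15.6 CPM against 12.3, 8.05 and 11.5 CPM. The groups overlapped, and wild-type library 3 was the highest of the 6. The log2 difference was −0.21 ± 0.25 (95% interval −0.75 to 0.33; limma voom adjusted p = 0.607).

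Rnf43 and Znrf3 are related membrane ubiquitin ligases that remove Frizzled receptors from the cell surface and so dampen Wnt signals. Rnf43 (ENSMUSG00000034177; mm9 chr11:87476224-87549041) stood at 28.0, 27.9 and 23.3 CPM in the wild-type libraries and 32, 23.8 and 25.2 CPM in knockout, with a log2 difference of 0.02 ± 0.16 (95% interval −0.33 to 0.36; adjusted p = 0.962) whose sign changed with the scaling. Its groups overlapped over most of their range. Znrf3 (ENSMUSG00000041961; mm9 chr11:5176327-5344850) stood at 14.5, 16.4 and 17.1 CPM in the wild-type libraries and 13.0, 13.7 and 14.5 CPM in knockout. The highest knockout and the lowest wild-type library both rounded to 14.5 CPM, and the log2 difference of −0.21 ± 0.18 did not pass (95% interval −0.60 to 0.19; adjusted p = 0.483).

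Lgr5, the R-spondin receptor that marks the innermost pericentral hepatocytes, had few counts, 54, 46 and 63 in the wild-type and 28, 37 and 47 in the knockout libraries (ENSMUSG00000020140; mm9 chr10:114887367-115024836). These gave means of 9.59 ± 0.397 and 6.66 ± 0.529 CPM. The groups were separate, with the highest knockout library at 7.27 CPM and the lowest wild-type library at 9.21 CPM. The log2 difference of −0.53 ± 0.23 had an unadjusted p of 0.0401 and an adjusted p of 0.142 in limma voom, so Lgr5 was not called. Non-overlap was found for 5 of the 9 members tested and for 35.1% of all genes tested; the 5 include Znrf3, whose groups were apart by less than the rounding of the values.

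Tbx3, a T-box transcription factor of pericentral hepatocytes (ENSMUSG00000018604; mm9 chr5:120120678-120134733), ranged widely in wild type, at 28.0, 37.4 and 52.1 CPM, and stood at 38.1, 32.4 and 34.2 CPM in knockout. All 3 knockout libraries fell inside the wild-type range. The log2 difference was −0.14 ± 0.20 (95% interval −0.56 to 0.28; limma voom adjusted p = 0.682), and it was 0.11 without wild-type library 3.

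Sp5, a zinc-finger transcription factor and direct target of β-catenin whose upstream window is printed above with its TCF/LEF match, was close to the limit of detection (ENSMUSG00000075304; mm9 chr2:70312980-70315786). Wild-type libraries gave 4, 6 and 10 counts, and knockout libraries 0, 0 and 4. In CPM the groups did not overlap (0.682, 1.25 and 1.59 against 0, 0 and 0.537), but the counts of wild-type library 1 and knockout library 3 were both 4. Sp5 failed the low-count filter. With no such filter limma voom gave an unadjusted p of 0.00400 and an adjusted p of 0.0520, and the authors' deposited table lists a log2 ratio of −1.91 for the pooled groups. Even and odd counts were unequally common (61.8% of counts from 1 to 19 were even), and every Sp5 count was even.

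Per kilobase of counted length, the members differed widely in level. In wild type the order was Rgn (570.4 ± 53.0 CPM per kb, SD, n = 3), Oat (351 ± 93.3), Lhpp (29.4 ± 4.71), Slc1a2 (27.6 ± 2.17), Tbx3 (7.46 ± 2.31), Rnf43 (3.96 ± 0.396), Znrf3 (2.41 ± 0.206), Axin2 (2.34 ± 0.584), Lgr5 (0.961 ± 0.0398) and Sp5 (0.558 ± 0.218). Lhpp and Slc1a2 overlapped, and so did Znrf3 and Axin2, so these neighbours cannot be ordered. In knockout Oat, at 549 ± 54.1 CPM per kb, stood above Rgn, at 379.6 ± 32.4, in all libraries. Lhpp, at 59.8 ± 9.51 CPM per kb, stood above Slc1a2, at 23.8 ± 4.36, without overlap. The other members kept their places, with Znrf3 and Axin2 again overlapping.

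The 2 members that rose are neighbours. Oat on the reverse strand and Lhpp on the forward strand of chromosome 7 point away from each other, with 34.3 kb between their annotated 5′ ends. Only 3 other genes with counts lay within 100 kb of the pair, and 0 of them were called by limma voom. Fam53b, the next gene beyond Lhpp (mm9 chr7:139903765-140005569), averaged 9.75 ± 1.85 CPM over the wild-type and 19.4 ± 7.97 CPM over the knockout libraries, with a log2 difference of 0.86 ± 0.28 that just missed the threshold (adjusted p = 0.0512). Fam53b passed under limma trend (adjusted p = 0.0335), robust variance moderation (0.0382) and the replicate block (0.0257), but under no other alternative with all 6 libraries. Of the 6 fits without 1 library only 2 called it, and its limma voom adjusted p was 0.150 without wild-type library 2. Knockout library 1, at 28.5 CPM, stood well above knockout libraries 2 and 3, at 13.9 and 15.7 CPM. Fgfr2, listed with a span that covers both Oat and Lhpp, had a log2 difference of −0.25 ± 0.14, and AC099609.2, inside Lhpp on the other strand, one of 0.15 ± 0.49 on 9 to 21 counts. The sources used here do not say how reads shared between overlapping genes were counted. Fgfr2 had 166 to 370 counts where Oat had 3222 to 8746 and Lhpp 319 to 852. Among the other members, Rnf43 shares 3936 bases with AL596086.1 on the same strand, which had 0 to 19 counts. Slc1a2, Axin2 and Tbx3 are each overlapped by a gene on the other strand. Of the genes flanking Rgn, AL672073.2 was not tested, and RP23-333P16.1, of unknown role here, fell by 0.69 ± 0.19 on the log2 scale (a log2 difference of −0.69; adjusted p = 0.0308; lost without wild-type library 2 or 3 or knockout library 3).

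Across the 6 libraries the level of Lhpp followed that of Oat with a Pearson r of 0.92 of log2 CPM. The r with Lhpp was −0.95 for Lgr5, −0.86 for Znrf3, −0.85 for Sp5 and −0.82 for Rgn. It was −0.44 for Slc1a2, −0.34 for Axin2, −0.31 for Tbx3 and 0.40 for Rnf43. Of 9528 genes with a mean of at least 5 CPM, the 3 most like Lhpp were Zfp668 (r = 0.9986), which encodes a zinc-finger protein, Adh4 (r = 0.9966), an alcohol dehydrogenase, and Enho (r = 0.9962), which encodes the secreted peptide adropin. These values describe 6 points in 2 groups. They hold the difference between genotypes, and 267 genes had an r above 0.95. Zfp668 had only 21 to 46 counts per library and was not called (log2 difference 0.73 ± 0.30; limma voom adjusted p = 0.119).

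The upper parts of the Wnt pathway were read from lists of other genes. Of 8 tested genes of Wnt and R-spondin ligands and their secretion, 0 were called by limma voom or limma trend, 2 had an unadjusted p under 0.05, and the median log2 difference was −0.07. Differences were positive for 3 and negative for 5. The 2 were Wnt5a and Wnt5b, both higher, with log2 differences of 1.44 ± 0.62 and 1.25 ± 0.52 (limma voom adjusted p = 0.137 and 0.121). They had 2 to 18 and 5 to 42 counts per library and were named after their values were seen. Rspo3, the R-spondin of central vein endothelium, averaged 7.40 ± 0.486 CPM over the wild-type and 6.01 ± 2.30 CPM over the knockout libraries (−0.27 ± 0.30; adjusted p = 0.583). Wnt2 and Wnt9b, the endothelial ligands, had 8 to 41 counts per library and differed by −0.03 ± 0.36 (adjusted p = 0.972) and −0.55 ± 0.45 (adjusted p = 0.438) on the log2 scale (named after their values were seen), so modest changes were not detectable at this depth.

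Receptors gave the most calls of the Wnt lists, with 3 of 11 higher, 0 lower and 8 not past the threshold (27.3% called, beside 14.5% of all genes tested, and 7.58% higher; median log2 difference 0.40). Lrp5, a co-receptor that binds Wnt together with Frizzled, rose from 75.1 ± 11.9 to 156 ± 5.55 CPM (1.06 ± 0.12; limma voom adjusted p = 1.88e-04), and all 6 fits without 1 library kept its call. Its paralogue Lrp6 was more abundant, with means of 249 ± 16.3 and 235 ± 13.6 CPM, and did not pass (−0.09 ± 0.10; adjusted p = 0.602). Lgr4, the R-spondin receptor related to Lgr5, rose from 113 ± 13.9 to 156 ± 21.7 CPM (0.46 ± 0.13; adjusted p = 0.0284), but not with totals that leave out mitochondrial genes (adjusted p = 0.0505) or without wild-type library 2 or 3 or knockout library 1. Fzd8, a Frizzled receptor, rose from 5.76 ± 3.19 to 11.7 ± 2.04 CPM (1.18 ± 0.33; adjusted p = 0.0306), but not with the replicate block (adjusted p = 0.0550) or without wild-type library 2 or 3 or knockout library 3. The number of receptors called higher was 4 with median-of-ratios scaling, no low-count filter or limma trend, 1 without wild-type library 2 or 3, and 2 without knockout library 1 or with the mitochondrial genes left out of the totals.

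Of 18 genes of signal transduction and the destruction complex, 2 were higher, 0 lower and 16 did not pass (11.1% called, below the 14.5% of all genes), with a median log2 difference of 0.06. With totals that leave out mitochondrial genes 1 was lower. The higher genes were Dvl1, which relays the signal from Frizzled (0.63 ± 0.13; adjusted p = 0.00684), and Ppp2r1a, a phosphatase scaffold subunit with many roles outside this pathway (0.65 ± 0.14; adjusted p = 0.00939, and 0.0587 without wild-type library 3). Csnk1a1, the kinase that primes β-catenin for destruction, had a log2 difference of −0.26 ± 0.13, and Ctnnb1, β-catenin itself, one of 0.25 ± 0.14 (adjusted p = 0.177 and 0.244). Among 13 nuclear effectors only Bcl9l, a β-catenin co-activator, was called (7.69% of the list; 27.1 ± 3.36 to 43.4 ± 2.44 CPM; 0.66 ± 0.14; adjusted p = 0.00865), and the median was 0.03. Tle1, a co-repressor, had a difference of 0.31 ± 0.14, and passed only without knockout library 3 (adjusted p = 0.0360). Tcf7l2 and Tcf7, the DNA-binding partners of β-catenin, differed on the log2 scale, without passing, by −0.36 ± 0.15 (adjusted p = 0.111) and −0.65 ± 0.35 (adjusted p = 0.228).

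Of 5 tested antagonists 0 were called by limma voom or limma trend, and 1 had an unadjusted p under 0.05. Their median log2 difference was 0.61, with 4 of 5 positive. Dkk3, a secreted protein of the Dickkopf family, had the smallest p (1.09 ± 0.40; adjusted p = 0.0830), and Dact1 and Dact2, which bind Dishevelled, differed by 0.66 ± 0.33 and 0.61 ± 0.41. Notum, a secreted enzyme that inactivates Wnt and is itself a pericentral Wnt target, averaged 19.4 ± 2.53 and 20.8 ± 2.12 CPM in the wild-type libraries and knockout (0.14 ± 0.17; adjusted p = 0.630). Nkd1, another feedback target, stood at 7.57 ± 0.432 and 7.04 ± 2.15 CPM (−0.14 ± 0.27; adjusted p = 0.763). Ctnnb1, Tcf7l2, Tcf7, Nkd1, Dkk3, Dact1 and Dact2 were named after their values were seen.

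**Figure D3:**
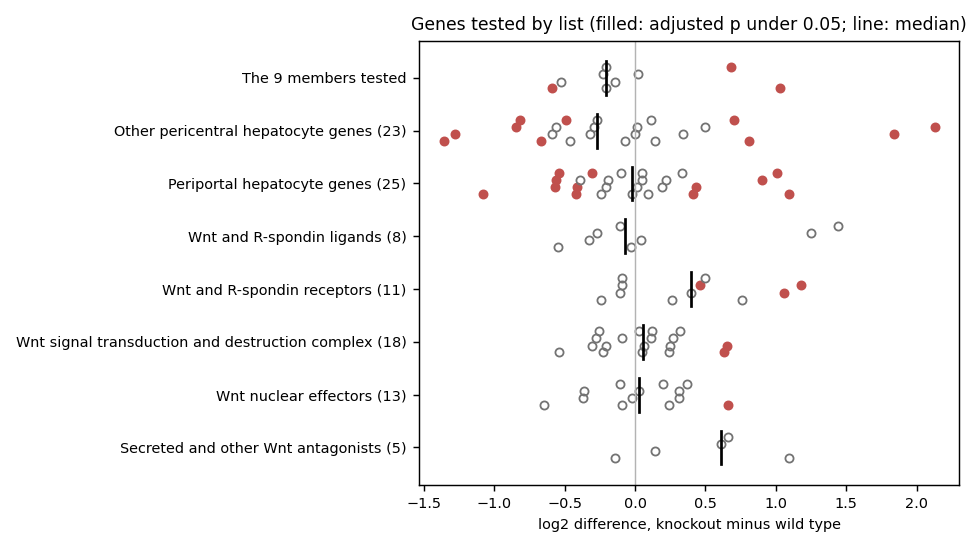
Log2 difference of each gene tested in the members and in 7 gene lists, with the number tested after each list name; filled red points passed an adjusted p under 0.05, open grey points did not, and the black line is the median. Pericentral and periportal genes were called in both directions, whereas the points called in the Wnt receptor, transduction and nuclear lists lie to the right of 0.

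Other pericentral genes also split. Of 23 tested, 4 were higher, 6 were lower and 13 did not pass (43.5% called, against 14.5% of all genes), with a median log2 difference of −0.27. That share was near those of periportal genes (48.0%) and hepatocyte markers (45.5%), and the lists were chosen with earlier results of these data known. Cyp7a1, the rate-limiting enzyme of bile acid synthesis and a gene that SHP represses, rose by 2.13 ± 0.20. Cyp2c29 and Cyp2a5, drug-metabolising cytochromes with near-identical relatives that make single-gene counts uncertain, fell, with log2 differences of −1.28 ± 0.12 and −1.36 ± 0.18 (limma voom adjusted p = 4.99e-05 and 4.59e-04). The further calls were Rhbg, Gulo and Por, which rose, and Nr1i3, Slco1b2, Aldh3a2 and Cyp2c37, which fell.

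Glul, glutamine synthetase, which is restricted to the cells next to the central vein, averaged 1139.9 ± 35.4 and 1150.4 ± 142 CPM in the respective genotypes (log2 difference 0.01 ± 0.10, 95% interval −0.22 to 0.23; limma voom adjusted p = 0.979). Cyp2e1, the most abundant gene of the list that did not pass, had a difference of −0.07 ± 0.11, and Cyp1a2 one of 0.14 ± 0.10 (adjusted p = 0.693 and 0.368). Rhbg, an ammonia transporter found in the same cells as Glul, rose from 8.75 ± 2.32 to 32.1 ± 10.5 CPM (1.84 ± 0.28; adjusted p = 0.00123). Its counts were 66, 40 and 42 in wild type and 189, 114 and 229 in knockout, every knockout library above every wild-type library, and all 6 fits without 1 library kept the call. Glul, Cyp1a2 and Rhbg were singled out after their values were seen.

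Periportal genes, from the opposite end of the lobule, were also called in both directions, with 5 of 25 higher, 7 lower and 13 not past the threshold (48.0% called, against 14.5% of all genes; median log2 difference −0.02). Fbp1, of gluconeogenesis, and Sds, which breaks down serine, rose by 1.01 ± 0.13 and 0.90 ± 0.13. Etnppl, which breaks down phosphoethanolamine, fell (log2 difference −1.08 ± 0.14; adjusted p = 3.27e-04). Alb, the most abundant gene that did not pass, had a difference of 0.05 ± 0.12. Without wild-type library 3 the periportal calls were 3 higher and 2 lower, and the pericentral calls 4 and 6.

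Markers of other liver cells were read beside these results, and every one with counts had at least 1 count in some library. Endothelial markers, the cell type that releases Wnt ligands, summed to 719 to 787 CPM in the wild-type libraries and 497 to 754 in knockout, with 1 of 16 higher (Lyve1, log2 difference 0.82) and 1 lower (Mrc1, −0.50), neither of which held without wild-type library 2 or 3; without 1 library the lower calls ran from 0 to 3. Macrophage markers summed to 413 to 484 and 416 to 639 CPM, with 3 of 12 higher and 0 lower by limma voom and 1 lower by limma trend. The higher calls, Marco, C1qa and C1qc, numbered 0 without wild-type library 3, 1 without wild-type library 2 or knockout library 2, and 2 without any other library or with mitochondrial genes left out of totals. Stellate cell and fibroblast markers summed to 469 to 532 and 262 to 547 CPM, with 0 of 12 higher and 1 lower (Rgs5, lost without wild-type library 3 at an adjusted p of 0.0549). Stellate calls numbered 2 higher without knockout library 1, 1 higher and 2 lower without knockout library 3, and 1 higher with limma trend or the replicate block. Cholangiocyte markers summed to 58.0 to 60.6 and 40.4 to 75.2 CPM, with 0 of 4 called and 0 at an unadjusted p under 0.05. Their part in the members' values was not tested. The share of mitochondrial counts did not overlap between the genotypes (10.2% ± 0.0617 and 6.5% ± 0.753, SD, n = 3 each; two-sided exact permutation p = 0.10, the lowest this design allows). With totals that leave those genes out, Lhpp, Oat and Rgn kept their calls, at log2 differences of 0.97, 0.63 and −0.64.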

How the data were processed

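Cap-selected liver RNA of 3 wild-type and 3 SHP -/- mice was read from both ends; per the submitters' processing notes, Novoalign 2.05.33 did the alignment, and mm9 is the build the file header names. The counting tool, the annotation release and the handling of strand and of multiply aligned reads are not stated in those notes or the labels. Deposited values by the authors are whole-number counts for each gene and library, RPKM and a log2 ratio for pooled groups, and the gene length that was used here for levels per kilobase. The count columns were recorded under a general unit because 4840 lines end early, so no negative binomial test was run. The choice followed from that record and not from the counts, which are whole numbers for every gene used. Of 33495 genes listed, 19594 had counts. Start coordinates were raised by 1 to count from 1.

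Tests covered the 11794 genes with 1.83 CPM or more (10 counts in a library of median size) in at least 3 libraries and 15 or more counts in all. Scaling used trimmed means of M values (factors 0.965 to 1.03). limma 3.58.1 (voom with 0.5 added, lmFit, eBayes) in R 4.3.3 was fitted with genotype as the only term, and the procedure was tested on simulated data. Python 3.11.15, pandas 2.3.3, scipy 1.17.1 and matplotlib 3.10.9 served for the rest.

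The members and gene lists were chosen with earlier results of these data known. Named genes are all members, Nr0b2, up to 3 called genes of each list by smallest p with the most abundant uncalled one, measured genes within 100 kb of Oat or Lhpp, the genes flanking Rgn, and the 3 genes most like Lhpp; some of these are given as counts only. Alternatives were median-of-ratios scaling, no filter, limma trend, robust moderation, halved counts, the replicate block and leaving out each library. A further one used library totals without mitochondrial genes and without a trimmed-mean factor. The labels do not say that libraries came from separate cages, litters or days, so p-values measure only the spread between these samples.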

Additional observations from a re-analysis of the deposited data

How the results depend on the processing

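The count of members past the threshold was 3 (2 higher, 1 lower) under every alternative with all 6 libraries. Across the fits without 1 library it ran from 2 to 3, with 1 to 2 higher and 1 lower, and the value of 1 came without wild-type library 3, where Oat was not called. The cause was not tested. Genes called over the whole table numbered 1713 (894 higher, 819 lower), and without 1 library 620 to 1567 (340 to 844 higher, 280 to 797 lower), fewest without wild-type library 3. With totals that leave out mitochondrial genes, 40.0% of calls were higher instead of 52.2%, and the median log2 difference of all genes was −0.06 instead of −0.01. That setting also drops the trimmed-mean factor, so the shift cannot be assigned to the mitochondrial genes alone.

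Only uncalled differences near 0 changed sign. Without 1 library, log2 differences ran from −0.09 to 0.10 for Rnf43 (negative without wild-type library 3 or knockout library 1), −0.37 to 0.11 for Tbx3, −0.05 to 0.19 for Alb, −0.09 to 0.07 for Glul, −0.17 to 0.01 for Cyp2e1, −0.34 to 0.29 for Wnt2 and −0.23 to 0.48 for AC099609.2. With the mitochondrial genes left out of totals, Rnf43 was at −0.04, Glul at −0.05 and Alb at −0.01.

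Replicate numbers gave no sign of pairing: deviations from the group means of same-numbered libraries correlated at −0.02, and 0 of 6 libraries correlated best with their own number. All correlations between the genotypes lay from −0.02 to 0.03. Deviations within a group of 3 are not independent, so this check cannot exclude a shared litter, day or lane. With the replicate block 1778 genes and 3 members were called, and Nr0b2 was not (adjusted p = 0.0552). Depth limits the members Sp5, Lgr5 and Axin2 and the Wnt ligands, each with under 100 counts per library.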
